A study of Saccharomyces cerevisiae with 24 samples.

Results

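Of the 24 libraries of the series, 3 hold the Control-AA yeast strain at 0, 10 and 30 min of rapamycin, with 1 library per time, and were chosen by their labels. They were made by single molecule intron tracking (SMIT), which counts spliced and unspliced nascent transcripts by the position of the RNA 3′ end, and so by how far RNA polymerase II had moved past the intron. Of 59 intron-containing genes measured in them, 58 were used. Control-AA is MATa and carries tor1-1, fpr1Δ::loxP-LEU2-LoxP and RPL13A-2xFKBP12::LoxP-TRP1-LoxP, with no FRB-tagged protein in its genotype. Cells grew to log phase in YPAD at 30 °C, and rapamycin was given at 1 ug per ml; the 0 min library stands for untreated cells of the same strain. Nab2-AA, used below for comparison, has the same 3 alleles plus NAB2-FRB::HIS in a MATalpha background, with the same times and dose. The wild type, also used for comparison, is MATa with his3Δ1, leu2Δ0, met15Δ0 and ura3Δ0 and received no rapamycin.

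The anchor-away method removes a nuclear protein by drug. Rapamycin bridges an FRB tag on that protein and an FKBP12 tag on a ribosomal protein, and the ribosomal protein carries the pair out of the nucleus. In wild-type yeast, rapamycin bound to Fpr1 inhibits the TOR kinase, which among other things turns down ribosomal protein genes, and the tor1-1 mutation with the loss of FPR1 makes growth insensitive to the drug. Control-AA has the anchor but no tagged cargo, so its time course measures splicing with the drug alone. Introns in budding yeast are few, are concentrated in ribosomal protein (RP) genes, and are mostly removed while the transcript is still bound to chromatin. The question these libraries address is how far nascent splicing differs between times when no protein is anchored away.

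Because each time is 1 library, no difference below has a test or a replicate error. Intervals are 95% and cover counting error only, and reads copied by PCR are not independent molecules. Every comparison of 10 or 30 min uses the same 0 min library, so the 2 comparisons are not independent and are set side by side. The 3′ end of each nascent RNA was marked in the experiment by a ligated adapter, which is shown because it fixes the position that every value below refers to; the capitals mark its 5 random bases, and the oligo has 22 nt.
3′ end adapter: NNNNNctgtaggcaccatcaat

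In the 58 genes used, the libraries held 1546492, 1389098 and 1481567 reads ending past the 3′ splice site at 0, 10 and 30 min. Over all genes listed, a further 129730, 123243 and 123651 reads ended at or before it. The gene with the fewest reads had 1055, 951 and 1075, and RPS13, the one with the most, had 256078, 232400 and 264846. RPL20A, with 94488 and 87203 reads past the splice site at 0 and 10 min, was left out because its listing at 30 min ends before that site. No gene of the Control-AA genotype that was deleted or tagged was among the genes measured, so the strain label could not be checked from these reads.

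A fraction spliced was computed per gene as the mean over bins of 30 nt that held at least 10 reads, so that each stretch of the gene counted alike. Its median over the 58 genes was 0.818 at 0 min, 0.810 at 10 min and 0.807 at 30 min. The 14 RP genes stood at a median of 0.995, 0.995 and 0.994, and 12 of them exceeded 0.9 at each time. The 44 other genes had medians of 0.791, 0.781 and 0.790, and 11, 12 and 10 of them exceeded 0.9. By this raw fraction most RP genes were thus near 1 at all 3 times, while most other genes held a mixture. These levels depend on the assay: long reads of the strain at 10 min were lower in 49 of 57 genes, as given below.

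The 2 RP genes below 0.9 were the same at each time. RPL2A had 0.702, 0.892 and 0.768, and RPS14B, whose pre-mRNA is known to be bound by its own protein, had 0.810, 0.782 and 0.769. DBP2, an RNA helicase gene known to regulate itself through its intron, had 0.9999, 0.998 and 0.9999. YRA1, an mRNA export adaptor with a similar feedback on its own intron, had 0.9996, 0.9995 and 0.999. Long reads of the strain at 10 min gave YRA1 only 0.150 and 0.194, and DBP2 0.824 and 0.894. By SMIT, RPL35A and RPS27B, proteins of the large and small ribosomal subunit, exceeded 0.999 at every time. At the low end stood CMC4, a protein of the mitochondrial intermembrane space, with 0.249, 0.196 and 0.226. The next lowest at 0 min were MAF1, the repressor of RNA polymerase III, with 0.443, 0.455 and 0.461, and BIG1, which acts in the endoplasmic reticulum in making cell wall glucan, with 0.479, 0.447 and 0.529. YDL012C had 0.546, 0.516 and 0.494.

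**Figure D1:**
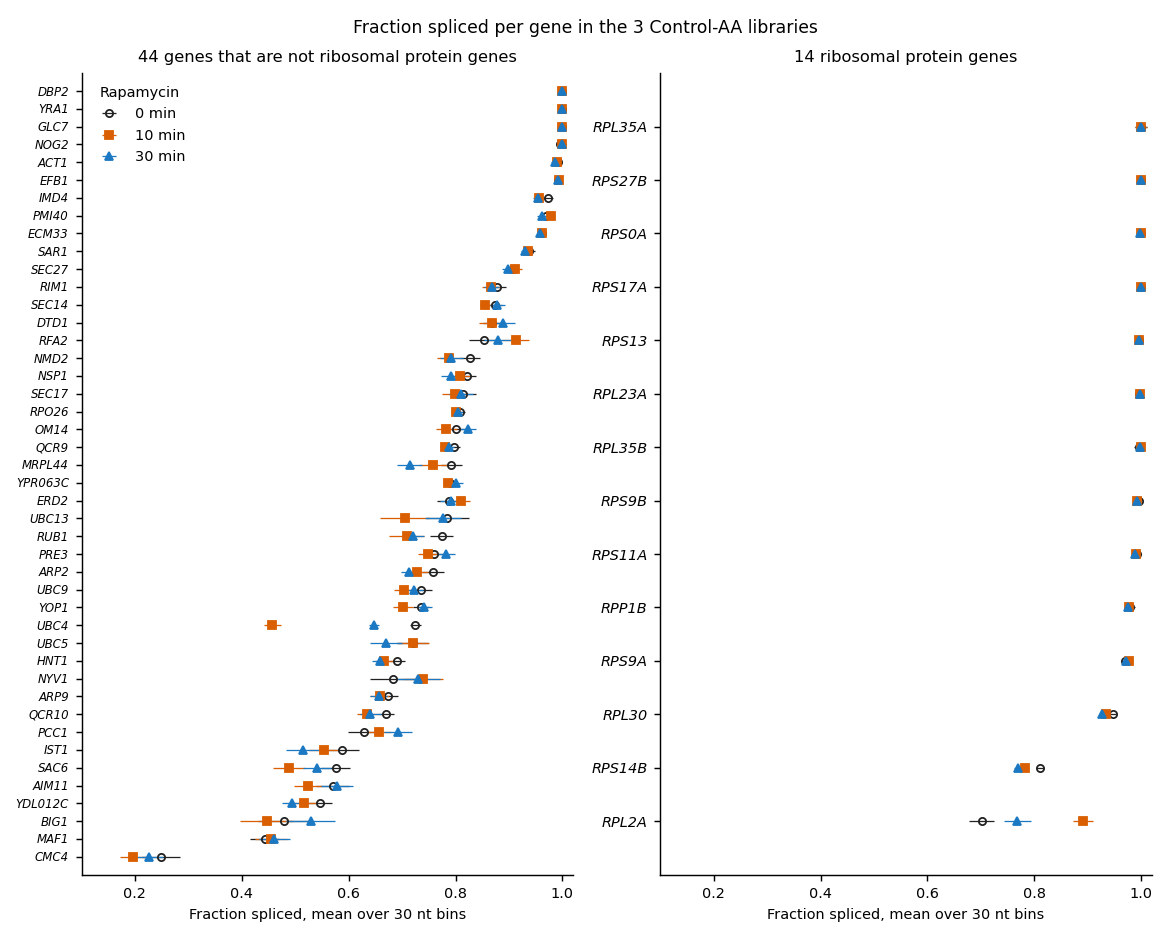
Fraction spliced (horizontal axis, mean over 30 nt bins) of each gene at 0 min (open circles), 10 min (squares) and 30 min (triangles) in Control-AA, with 95% counting intervals. Most genes show 3 overlapping symbols; UBC4 (0.725, 0.457 and 0.648) and RPL2A (0.702, 0.892 and 0.768) stand apart at 10 min.

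Most genes moved by less than 0.05. At 10 min the median difference from 0 min was -0.00368, with 42 genes below their 0 min value and 16 above, and 25 genes lay within 0.01 of it. At 30 min the median was -0.00306, with 38 below and 20 above, and 29 within 0.01. A gene was counted as different when its fraction moved by more than 0.05, a rule of size and not a test. At 10 min 8 genes passed it (13.8%), 5 lower (8.62%) and 3 higher (5.17%), and at 30 min 9 genes passed (15.5%), 6 lower (10.3%) and 3 higher (5.17%). A difference of more than 0.10 was seen in 2 genes at 10 min (3.45%), UBC4 and RPL2A, and in 0 at 30 min. Between 30 and 10 min 7 genes differed by more than 0.05 (12.1%), 2 lower and 5 higher, and the same 2 genes exceeded 0.10, each moving back toward its 0 min value. The exact intervals of the spliced share of all reads did not overlap with those at 0 min in 24 genes at 10 min (41.4%) and 35 at 30 min (60.3%), an interval that covers counting error only. UBC4 passed 0.05 at both times under all 11 other settings tried, and IST1 did at 30 min. RPL2A passed under all 11 at 10 min and 10 at 30 min. By contrast RUB1, UBC13 and NYV1 at 10 min and RUB1, PCC1 and BIG1 at 30 min changed sign under at least 1 setting. Of the 11, 1 only drops genes with under 1000 reads in a library and leaves the other values unchanged. Its outcome for UBC4, IST1 and RPL2A was thus fixed in advance.

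The ubiquitin genes held the largest single difference. UBC4, which encodes a ubiquitin-conjugating enzyme of protein quality control, had a fraction of 0.725 (0.715 to 0.735) at 0 min, 0.457 (0.441 to 0.473) at 10 min and 0.648 (0.639 to 0.657) at 30 min. The 3 intervals did not overlap, and the 10 min library was the low one. The difference was -0.268 at 10 min and -0.0770 at 30 min. Its intron of 95 nt lies on chromosome II, minus strand, from 407028 to 407122 (sacCer3), just inside the start of the coding sequence. In reads, UBC4 had 11769, 5468 and 10456 spliced and 6671, 8355 and 8727 unspliced. The spliced share of reads was 63.8% (63.1 to 64.5, exact binomial), 39.6% (38.7 to 40.4) and 54.5% (53.8 to 55.2). Reads ending at or before the 3′ splice site numbered 13649, 13801 and 14768. The difference at 10 min thus went with fewer spliced reads, at 0.465 of the 0 min count, beside more unspliced reads, at 1.25 times.

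The drop in spliced reads of UBC4 at 10 min lay almost all past the first bin. Within 30 nt of the splice site UBC4 had 1258, 1201 and 1018 spliced and 1900, 2286 and 2437 unspliced reads. The fraction in this bin was 0.398, 0.344 and 0.295, so it was lower at both later times as well. Farther on it had 10511, 4267 and 9438 spliced reads and 4771, 6069 and 6290 unspliced ones. The ratio of spliced reads past 30 nt at 10 over 0 min was 0.406, the lowest of 58 genes, where the median was 0.881 and the next lowest 0.567 (RPL23A). Its fraction was below the 0 min value in 19 of 19 bins at 10 min and in 18 of 19 at 30 min. In the bin from 211 to 240 nt the fraction was 0.429, 0.129 and 0.312, and in the bin from 541 to 570 nt it was 0.988, 0.978 and 0.988. Past the end of the coding sequence at 400 nt the curves stayed apart at first, with 0.920, 0.755 and 0.891 from 451 to 480 nt, and the bin from 541 to 570 nt rests on 162, 45 and 170 reads.

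The other ubiquitin genes differed less. UBC5, the paralog of UBC4, had 0.7195, 0.7197 and 0.669 from 1882, 1705 and 1535 reads, and some reads of the pair could be assigned to the wrong copy, since how such reads were counted is not given in the sources used here. UBC9, the conjugating enzyme for SUMO, had 0.736, 0.703 and 0.722. UBC13, which builds ubiquitin chains in DNA damage tolerance, had 0.785, 0.705 and 0.777 from 1055, 951 and 1195 reads. Its spliced share of all reads was instead lowest at 30 min, with 75.5%, 71.0% and 67.3%. In the bins with at least 10 reads in all 3 libraries, UBC13 differed by -0.00978 at 10 min and -0.0569 at 30 min. RUB1, a ubiquitin-like modifier, had 0.774, 0.709 and 0.721, but its spliced share of all reads went the other way, with 16.6%, 15.2% and 14.4% unspliced. The median 3′ end of its reads moved from 176 to 246 and 242 nt. PRE3, a catalytic subunit of the proteasome, had 0.760, 0.749 and 0.783. Of these 6 genes, 5 lay below their 0 min value at each later time and 3 passed 0.05 downward at each. RUB1 was 1 of the 3 at each time, and it changed sign under 6 of 11 other settings at each. UBC13 was another at 10 min, though it did not pass 0.05 in the common bins. Over all genes 42 and 38 of 58 lay below 0 min, and 8.62% and 10.3% passed downward. The list had a median of -0.0487 at 10 min and -0.0320 at 30 min beside -0.00368 and -0.00306 over all genes.

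**Figure D2:**
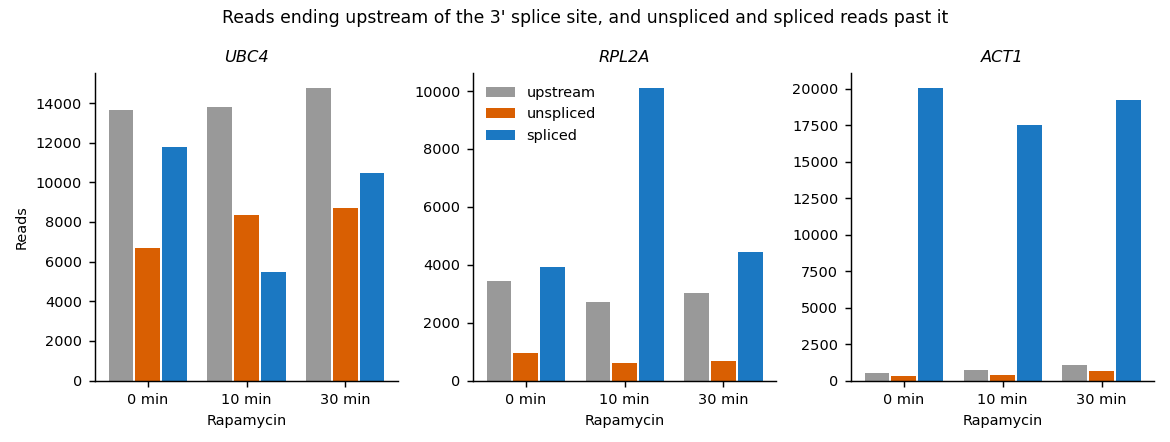
Reads (vertical axis) of UBC4, RPL2A and ACT1 at 0, 10 and 30 min in Control-AA, split into reads ending before the 3′ splice site, unspliced reads past it and spliced reads past it. For UBC4 the spliced bar is lowest at 10 min (5468 reads) and for RPL2A it is highest at 10 min (10109 reads).

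RPL2A, which encodes a protein of the large ribosomal subunit, moved the opposite way. Its fraction was 0.702 (0.679 to 0.725) at 0 min, 0.892 (0.873 to 0.910) at 10 min and 0.768 (0.743 to 0.793) at 30 min. The 10 min library was the high one, and the 3 intervals did not overlap. The difference was 0.190 at 10 min and 0.0662 at 30 min. Its intron of 147 nt lies on chromosome VI, minus strand, from 221268 to 221414. It had 3934, 10109 and 4441 spliced reads and 943, 609 and 688 unspliced reads, which is 80.7% (79.5 to 81.8), 94.3% (93.9 to 94.7) and 86.6% (85.6 to 87.5) spliced. The number of reads on RPL2A differed as well: it took 0.315%, 0.772% and 0.346% of the reads in the 3 libraries.

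As with UBC4, the extra spliced reads of RPL2A lay past the first bin. Within 30 nt it had 1009, 943 and 1139 spliced reads, and beyond that 2925, 9166 and 3302. The ratio past 30 nt at 10 over 0 min was 3.13, the highest of the 58 genes, and the next highest was 1.75 (RPS27B). The fraction was above the 0 min value in 14 of 14 bins at 10 min and in 12 of 14 at 30 min. Reads ending before the splice site numbered 3438, 2707 and 3040, so spliced reads per such read were 1.14, 3.73 and 1.46. RPL2B encodes a protein of the same family with near-identical sequence and was not among the genes measured here. How reads shared between the copies were counted is not given in the sources used here. The Nab2-AA libraries also had most reads on RPL2A at 10 min (5357, 10529 and 6235), but there the fraction was 0.885, 0.738 and 0.737. There the unspliced reads numbered 555, 2509 and 1596, so both classes of read were more numerous at 10 min.

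The other RP genes stayed within 0.05 at both times. RPS14B had the largest decrease, with fractions of 0.810 (0.803 to 0.817), 0.782 (0.775 to 0.789) and 0.769 (0.761 to 0.777). The share of its reads that were spliced was 51.0%, 45.4% and 39.99%, lower at each later time. RPL30, which also binds and restrains its own pre-mRNA, had 0.947, 0.934 and 0.926, with 4.10%, 5.17% and 5.98% of reads unspliced. RPS13, with the most reads, had 0.9967, 0.9963 and 0.9958. Over the 14 genes the median difference was -0.0000853 at 10 min and -0.000437 at 30 min, and 10 and 9 of them lay below 0.

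Of the cytoskeletal genes all 4 lay below their 0 min value at both times, beside 42 and 38 of all 58 genes, with medians of -0.0223 and -0.0259. ACT1, which encodes actin, had a fraction of 0.992, 0.99 and 0.986. Near complete splicing, a fraction hides relative differences in the unspliced remainder, and this remainder was 1.38% (1.22 to 1.55), 2.31% (2.095 to 2.54) and 3.30% (3.06 to 3.56) of reads, or 280, 414 and 658 reads. Its reads ending before the splice site also numbered 536, 732 and 1083, while spliced reads were 20070, 17506 and 19253. Unspliced and intronic reads were thus both more numerous at each later time. SAC6, the actin-bundling protein fimbrin, had 0.575 (0.549 to 0.602), 0.488 (0.458 to 0.518) and 0.541 (0.515 to 0.567). ARP2, of the Arp2/3 complex, had 0.758, 0.729 and 0.713. ARP9, a subunit of chromatin remodelling complexes related to actin in sequence, had 0.673, 0.658 and 0.656.

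Odds of being spliced show the same remainder across genes. The 52 genes with at least 30 spliced and 30 unspliced reads in all 3 libraries had a median log2 odds ratio of -0.13 at 10 min and -0.20 at 30 min. It was below -0.5 in 3 genes at 10 min (5.77%; ACT1, IMD4 and UBC4) and in 10 at 30 min (19.2%). Those 10 were ACT1 at -1.29, IMD4 at -0.78, RPS14B at -0.65, RPS9B at -0.60, UBC13 at -0.59, RPL30 at -0.57, RPL23A at -0.57, UBC4 at -0.56, ARP2 at -0.55 and IST1 at -0.53. It was above 0.5 in RPL2A alone at each time (1.92%), at 1.99 and 0.63. IMD4, an enzyme of GMP synthesis whose intron hosts a snoRNA, had 5.83%, 8.98% and 9.59% of reads unspliced.

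Among membrane traffic genes, IST1, a regulator of endosomal sorting, had 0.587 (0.555 to 0.619), 0.553 (0.525 to 0.581) and 0.514 (0.482 to 0.545), a difference of -0.0731 at 30 min. Its 0 and 30 min intervals did not overlap. NYV1, a vacuolar SNARE, had 0.684, 0.739 and 0.730 from about the fewest reads (1134, 1184 and 1075), with overlapping intervals. ERD2, the receptor that retrieves proteins to the endoplasmic reticulum, had 0.787, 0.810 and 0.792. Over the 7 genes of the list the median difference was -0.00281 and -0.00453, close to that of all genes.

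The mitochondrial genes numbered 6, of which 6 at 10 min and 5 at 30 min lay below 0 min, beside 42 and 38 of all 58 genes. Their medians were -0.0265 and -0.0168. MRPL44, of the mitochondrial ribosome, had 0.792 (0.773 to 0.811), 0.757 (0.731 to 0.783) and 0.714 (0.691 to 0.738), a decrease at 30 min of -0.0780, close to the -0.0770 of UBC4. By share of all reads, 15.0%, 17.5% and 18.8% were unspliced in MRPL44, a smaller difference than the 36.2%, 60.4% and 45.5% of UBC4. QCR10 and QCR9, subunits of the cytochrome bc1 complex, had 0.670, 0.635 and 0.641, and 0.797, 0.780 and 0.788. CMC4 passed 0.05 at 10 min only, with overlapping intervals of the position average. Its spliced share of all reads was 19.0% (17.8 to 20.3) at 0 min and 15.2% (14.2 to 16.3) at 10 min, where the intervals did not overlap. OM14, of the outer membrane, had 0.801, 0.783 and 0.823, and RIM1, which binds mitochondrial DNA, had 0.878, 0.867 and 0.868.

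By position average the 3 tRNA-related genes lay above 0 min at both times, beside 16 and 20 of all 58 genes. By share of all reads, however, PCC1 had 26.1%, 26.8% and 22.2% unspliced and MAF1 52.8%, 52.5% and 55.5%. PCC1, of the complex that modifies tRNA, had 0.628 (0.599 to 0.657), 0.657 (0.634 to 0.680) and 0.692 (0.665 to 0.719). DTD1, which clears D-amino acids from tRNA, had 0.868, 0.869 and 0.889. MAF1, which is listed with them and is a well-known target of TOR signalling, differed by 0.0122 and 0.0176, with overlapping intervals. The 5 genes of RNA processing and export all stayed within 0.05, with list medians of -0.00147 and -0.000655. NMD2, of nonsense-mediated decay, had 0.827, 0.789 and 0.792, and it lay below 0 min in 13 of 16 bins at 10 min and 15 of 16 at 30 min. NSP1, a nuclear pore protein, had 0.821, 0.809 and 0.791. In the transcription list RFA2, of the single-strand DNA binding complex, had 0.852 (0.825 to 0.880), 0.912 (0.886 to 0.938) and 0.879 (0.853 to 0.905). RPO26, found in all 3 nuclear RNA polymerases, had 0.808, 0.801 and 0.804. The cell wall genes ECM33 and PMI40 differed by less than 0.01 at each time, and BIG1 by -0.0320 and 0.0508 with overlapping intervals. AIM11, a gene outside the lists, had 0.570, 0.524 and 0.578.

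**Figure D3:**
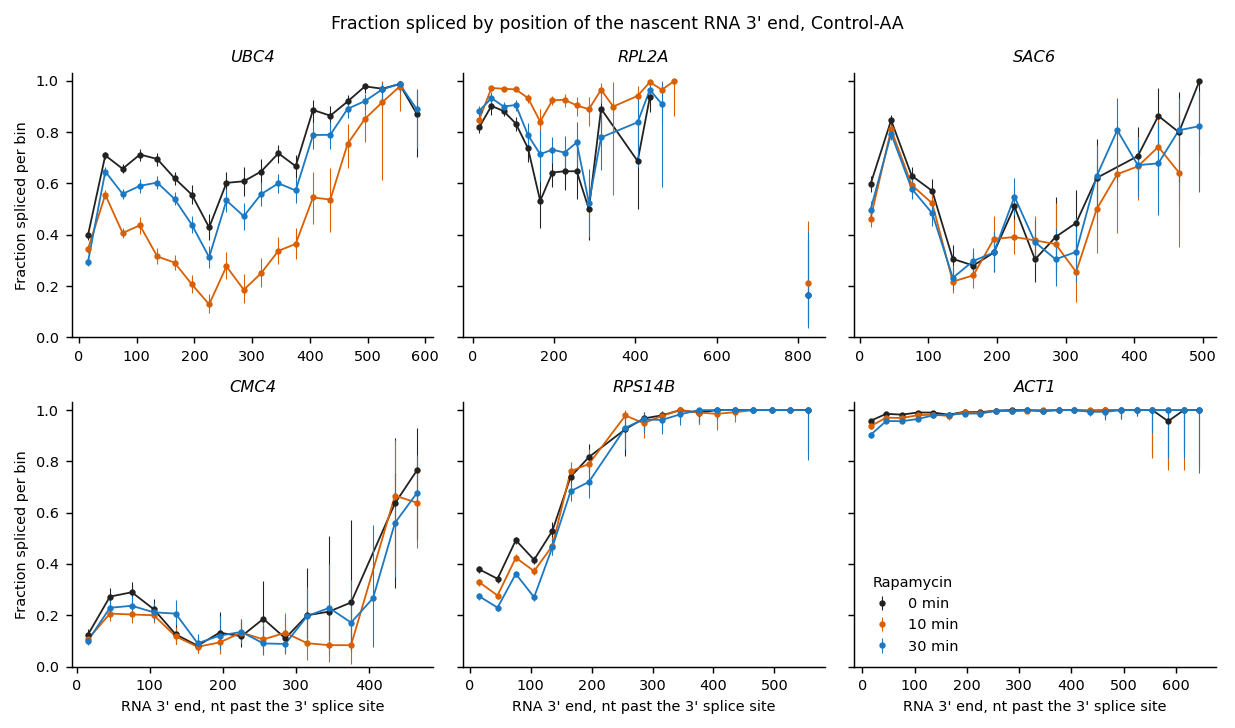
Fraction spliced (vertical axis) in 30 nt bins by the position of the nascent RNA 3′ end in nt past the 3′ splice site (horizontal axis) for 6 genes at 0, 10 and 30 min in Control-AA, with exact 95% binomial intervals; bins with under 10 reads are not drawn. UBC4 at 10 min runs below the other times and RPL2A at 10 min above them, while RPS14B is lower at 30 min than at 0 min in the bins up to 210 nt and ACT1 differs most in its first bin.

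The position of the 3′ end shows where along the gene these values arise. In the first 30 nt past the splice site the median fraction over genes was 0.761, 0.730 and 0.708, and over the last 3 bins of each gene it was 0.970, 0.975 and 0.981. The fraction reached 50% of that final level within the first bin in 47, 46 and 44 of the 58 genes. AIM11, CMC4 and RPS14B took longer than 60 nt at every time. RPS14B had 0.379, 0.329 and 0.274 in its first bin and 1 in its last ones, so its curve crossed nearly the whole range within the measured stretch. At the first nucleotide past the splice site 7.24%, 7.88% and 5.51% of reads were spliced. In CMC4 the first bin stood at 0.125, 0.107 and 0.101, and the last bins at 0.550, 0.463 and 0.501.

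Between these ends the median over genes dipped. It was 0.917, 0.912 and 0.903 from 61 to 90 nt (58 genes) and 0.740, 0.782 and 0.787 from 181 to 210 nt (56 genes). From 331 to 360 nt it was 0.942, 0.936 and 0.933 (53 genes). RPL2A dipped in mid-gene as well. Its fraction was 0.903, 0.973 and 0.933 from 31 to 60 nt and 0.500, 0.890 and 0.525 from 271 to 300 nt (70, 136 and 59 reads), so that the share dipped in mid-gene. It was higher again from 421 to 450 nt, at 0.936, 0.995 and 0.965. From 811 to 840 nt, past its coding end at 761 nt, 4 of 24, 4 of 19 and 3 of 18 reads were spliced. UBC4 and SAC6 dipped too: SAC6 had 0.847, 0.811 and 0.794 from 31 to 60 nt and 0.306, 0.217 and 0.232 from 121 to 150 nt. The 10 min difference in SAC6 was spread over the gene, with 13 of 15 bins below 0 min.

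Over all genes, the differences between times were most one-sided in the first 90 nt. In the first bin 43 of 58 genes at 10 min and 47 of 58 at 30 min lay below their 0 min value, with median differences of -0.00802 and -0.0236. From 31 to 60 nt the counts were 47 and 47, and from 61 to 90 nt they were 44 and 46. From 181 to 210 nt they were 26 and 28 of 56 genes, with 24 and 22 above, and the median differences were 0 and -0.000241. Farther on, some bins again had more genes below than above, such as 30 against 18 at both times from 271 to 300 nt, with medians of -0.00323 and -0.00233. Beyond 360 nt ties became common, since many genes were fully spliced in both libraries. ACT1 followed this pattern: its first bin had 0.958, 0.938 and 0.904 spliced.

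**Figure D4:**
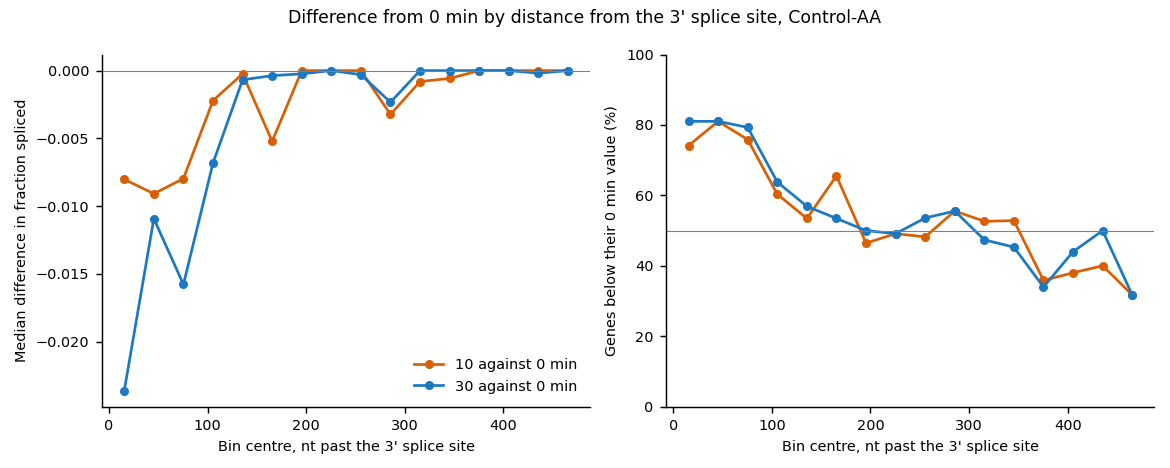
Left, median over genes of the difference in fraction spliced from 0 min (vertical axis), and right, percent of genes below their 0 min value (vertical axis), by bin centre in nt past the 3′ splice site (horizontal axis) in Control-AA, for bins with at least 40 genes. The median differences are largest within the first 90 nt (in the first bin -0.00802 at 10 min and -0.0236 at 30 min) and from 181 nt on lie between -0.00323 and 0; genes equal to their 0 min value count as not below it.

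Reads ending past the coding end could be separated in the 47 genes whose intron was located in the long reads. They made up 23.6%, 27.0% and 28.7% of the reads of these genes. In the 27 genes with at least 20 reads on each side of the coding end in every library, the median percent spliced was 94.5, 94.4 and 93.1 before it and 99.6, 99.9 and 99.4 past it. The percent was higher past it in 25, 25 and 23 genes, and RPL2A and RPS13 were lower at every time. UBC4 kept its 10 min difference there, with 92.3% (90.7 to 93.8), 74.0% (69.2 to 78.5) and 88.3% (86.5 to 89.9) spliced of 1198, 362 and 1398 reads.

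The share of reads per gene, which the gene-specific primers also set, differed by more than 2-fold from 0 min in 1 gene at each time (1.72%). At 10 min this was RPL2A, described above, and at 30 min RPS27B, which took 4.13%, 7.41% and 9.30% of reads (log2 ratios of 0.84 and 1.17) while staying above 0.999 spliced. RPS11A, another small-subunit protein, took 4.74%, 4.69% and 2.68%. RPL23A took 4.75%, 2.96% and 3.68%. Since the RP genes together took 65.2%, 67.2% and 69.0% of reads, their shares as a group differed far less than those of single members. Among other genes DBP2 took 1.20%, 1.00% and 0.742%, and NOG2, a GTPase of ribosome assembly, 1.20%, 1.06% and 0.826%. CMC4 took 0.253%, 0.346% and 0.303%, and RUB1 0.347%, 0.402% and 0.415%. In these bulk samples fewer cells holding a transcript and less of it per cell cannot be told apart.

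The same differences were set beside those of Nab2-AA and of the wild-type pair, with 1 library per time in Nab2-AA and no test. Over the 48 genes usable in all of these libraries, 12.5% of genes at 10 min and 16.7% at 30 min moved by more than 0.05 in Control-AA. In Nab2-AA 47.9% and 50% did, and 47.9% differed by that much between the wild-type libraries. The median absolute differences were 0.0154 and 0.0129 in Control-AA, 0.0459 and 0.0485 in Nab2-AA and 0.0448 in the wild-type pair. The labels name the 6 anchor-away libraries as one set with a shared ending, whereas the 2 wild-type libraries have names of different form, and they do not say whether any libraries came from separate cultures. Before rapamycin, Nab2-AA and Control-AA differed by more than 0.05 in 13 of 57 genes (22.8%), also a comparison of strains of opposite mating type. UBC4 had 0.661, 0.565 and 0.631 in Nab2-AA and 0.504 and 0.515 in the wild type, a difference at 10 min of -0.268 in Control-AA and -0.0953 in Nab2-AA. In reads, Nab2-AA had 8329 of 16979 spliced at 0 min and 7708 of 16235 at 10 min. In Nab2-AA 23 of 57 genes were lower by more than 0.05 at 10 min.

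**Figure D5:**
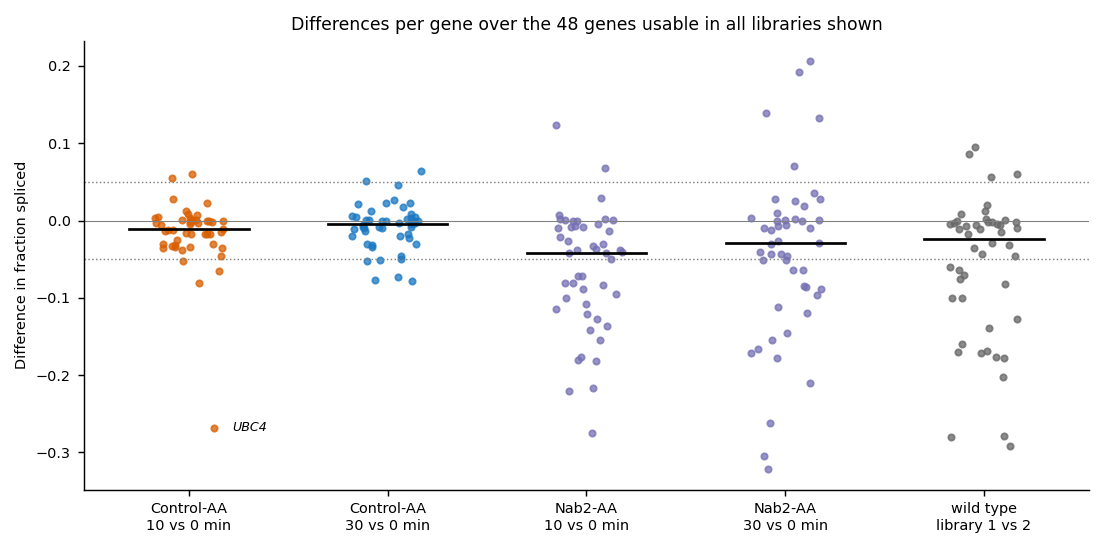
Difference in fraction spliced per gene (vertical axis; each point is 1 of 48 genes, black bars are medians, dotted lines mark 0.05 either way) for Control-AA and Nab2-AA at 10 and 30 min against 0 min and for wild-type library 1 against 2. Points of Control-AA spread less around 0 than those of the other pairs, with UBC4 at -0.268 apart; RPL2A is not drawn because it was not usable in the wild type.

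The authors' long-read table holds Control-AA at 10 min in 2 libraries, without the reads behind each value. For the 57 genes in both assays the median fraction at 10 min was 0.809 by SMIT and 0.471 by long reads. SMIT was above both long-read libraries in 49 genes, between them in 7 and below both in 1, RPL2A, with 0.892 by SMIT and 0.982 and 0.949 by long reads. UBC4 had 0.457 by SMIT and 0.182 and 0.219 by long reads. The order of genes was related between the assays (Spearman 0.61 over 57 genes, which share the strain and time). RPS9A had the largest gap, with 0.978 by SMIT and 0.157 and 0.135 by long reads. SMIT amplifies from gene-specific primers and long reads come from full-length cDNA, so the levels are not on one scale.

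Genes with a longer intron had a higher fraction at 0 min. The introns located in 47 genes were 71 nt (DTD1) to 1002 nt (DBP2) long. The median fraction was 0.995 in the 21 genes above 200 nt and 0.788 in the 26 others (Spearman 0.79 over 47 genes, many of which are RP genes). The files also hold a corrected fraction. Set against the raw values, the odds given by the authors' corrected fraction equal the raw odds of being spliced times a factor. The factor is smaller for longer introns, from 0.659 to 0.00587 over the genes at 0 min. With the corrected fraction the medians were 0.964 and 0.699 and the Spearman value 0.69. The corrected medians over all 58 genes were 0.749, 0.735 and 0.746, with 0.940, 0.928 and 0.932 in RP genes and 0.711, 0.684 and 0.706 in the others. The natural log of the factor per nt of intron ran from -0.00671 to -0.00662 at 0 min, from -0.00699 to -0.00690 at 10 min and from -0.00654 to -0.00646 at 30 min, so corrected differences between times include this difference in the correction.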

How the data were processed

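Nascent RNA from chromatin, depleted of poly(A) RNA, was ligated to an adapter and amplified with gene-specific primers, per the labels' protocols. Per the file headers, the deposited tables give, for each gene and 3′ end position, a read count, a raw fraction spliced and a fraction spliced that the authors corrected in a way not given in the sources used here. Raw fraction times count was a whole number at 100% of positions, so spliced reads were recovered. The authors' deposited difference table gives a score per gene whose scale is not stated, and the score column of the deposited long-read alignments was not used. Long-read fractions are those the authors deposited, without read numbers. The submitters' processing notes name HISAT2 2.1.0, cutadapt 1.9.1, minimap2 2.17, SAMtools 1.9, bedtools 2.29.2 and the build sacCer3; removal of PCR copies is not stated.

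Reads ending past the splice site were grouped into windows of 30 nt; windows with 10 or more reads were kept, and their fractions were averaged per gene. A gene was used if each library had 20 or more reads and positions out to 200 nt. Intervals are exact binomial for shares and carry the binomial error of each bin through the mean for position averages. Log2 odds ratios needed 30 spliced and 30 unspliced reads. Introns were placed from alignment gaps of at least 40 nt in at least 3 Control-AA long reads, with gene spans and names from the RefSeq table (59 of 59 genes matched). With 1 library per time, no test was run; the per-gene calculation was tested on simulated data. Calculations ran in Python 3.11.15 (pandas 2.3.3, numpy 2.4.6; SciPy 1.17.1 for intervals) and figures in matplotlib 3.10.9.

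The members, gene lists and rules were chosen with earlier results of these data known. Named genes were ACT1, the 8 largest decreases and 6 largest increases at each time among genes with at least 100 reads, the 4 lowest and 4 highest at 0 min, the 3 largest rises and falls of read share at 30 min, and list members. RPS13, RPS9A, RPS9B, RPL23A and RPL30 were named for the values given beside them. The alternatives were the share of all reads, common bins, other bin widths, read minimums and position limits, and the authors' corrected fraction; corrected values in common bins were added after seeing the data.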

Additional observations from a re-analysis of the deposited data

Results flagged for a closer look

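The change from 0 min went in opposite directions in Control-AA and Nab2-AA, past 0.05 in each, in 5 cases; each rests on 1 library per strain and time, and none of these differences was tested. For RPL2A at 10 min the change was 0.190 in Control-AA and -0.147 in Nab2-AA, a difference of -0.336 (Nab2-AA minus Control-AA). At 30 min it was 0.0662 and -0.148, a difference of -0.214. The 2 strains already differed at 0 min in this gene, with 0.702 in Control-AA and 0.885 in Nab2-AA.

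For SAC6 at 10 min the change was -0.0873 in Control-AA and 0.2195 in Nab2-AA, a difference of 0.307. For IST1 at 30 min it was -0.0731 and 0.140, a difference of 0.213. For PCC1 at 30 min it was 0.0637 and -0.154, a difference of -0.218.

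Outside the positions used, 516, 252 and 524 reads were counted as spliced although their 3′ end lay at or before the 3′ splice site, at 0, 10 and 30 min. They are 0.398%, 0.204% and 0.424% of the reads there, against the 3 reads that a count of 0 allows. ERD2 held 115, 1 and 116 of them, UBC13 held 89, 39 and 61, and OM14 held 35, 0 and 109. RPL20A, whose listing at 30 min ends before the splice site, held 0, 0 and 89.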

How the results depend on the processing

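The median change at 10 min was -0.00368 and stayed below 0 under 11 other settings, but was -0.00152 in common bins, -0.00102 with at least 1 read per bin, -0.0147 with corrected values and -0.00678 with corrected values in common bins. At 30 min it was -0.00306 and also stayed below 0, with -0.00911 by the share of all reads, -0.00155 with bins of 50 nt, -0.00738 with corrected values, -0.00894 up to 200 nt, -0.00139 above 30 nt and -0.00730 with corrected values in common bins. For 30 against 10 min it was -0.000218, with -0.000821 by the share of all reads, -0.000536 in common bins, -9.33e-05 with bins of 10 nt and -0.00341 up to 200 nt, and it turned to 0.00265 and 0.000614 with corrected values in all and in common bins. Of 1350 values of single genes, 1180 stayed within their counting interval, 147 moved beyond it and 23 changed sign after passing 0.05. The 1180 include the setting with at least 1000 reads per gene, whose values equal the main ones by design. The count of genes past 0.05 at 10 min was 5 with the share of all reads, against 8. At 30 min it was 5 with at least 50 reads per bin and 14 with positions up to 200 nt, against 9. For 30 against 10 min it was 4 in bins common to the 3 libraries, 4 with at least 50 reads and 11 with at least 1 read per bin, against 7.

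RUB1 turned positive at 10 min with the share of all reads (0.0146), common bins (0.00150), a minimum of 1 read (0.0413) or 50 reads (0.00847), positions up to 200 nt (0.0104) and corrected values in common bins (0.00158), a setting added after seeing the data. At 30 min the same settings gave 0.0217, 0.0128, 0.0925, 0.00873, 0.00615 and 0.0131. With at least 50 reads per bin, UBC13 at 10 min was 0.00347, NYV1 at 10 min -0.00599 and BIG1 at 30 min -0.00706. PCC1 at 30 min was -0.00275 with at least 1 read. For 30 against 10 min UBC13 was -0.0370 with the share of all reads, -0.0472 in common bins, -0.0538 with at least 50 reads, -0.00836 up to 200 nt and -0.0570 with corrected values in common bins. SAC6 was -0.00897 and AIM11 -0.00254 up to 200 nt. The cause of these shifts was not tested.

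No paired analysis was possible because each Control-AA time has 1 library and no replicate number. No library could be left out for the same reason. The depth limits genes with few reads: the median counting interval of a change was 0.0206 either way at 10 min.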

Other observations

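DBP2 had 8, 81 and 3 unspliced reads at 0, 10 and 30 min. At 10 min 80 of the 81 ended at the first nucleotide past the 3′ splice site, where 10 further reads were spliced, so the one raised value of this gene sits at 1 position.

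The authors' deposited table of differences gives a score for 57 genes at 10 min and 56 at 30 min. UBC4 at -0.523 and RPL2A at 0.791 are its extremes at 10 min. At 30 min the extremes in the authors' deposited table are UBC13 at -0.887 and OM14 at 0.547, which were not the extremes of the position average here. Of the genes in the authors' deposited table, 24 and 27 share their score with another gene, in each case one in the neighbouring row when sorted by systematic name. The sign of the score in the authors' deposited table was opposite to the change computed here in 17 of 56 genes at 10 min and in 12 of 56 at 30 min.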
